A study of Homo sapiens with 24 samples.

Results

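Cells carrying the RBPMS knockout label were compared before induction and after 3 h of mesoderm induction. The comparison used 6 of the 24 libraries of the series and every gene of the deposited table with enough reads. The gene lists used below were chosen with earlier results of these data known. One group was KO at 3 h, treated with 1.5 ng/ml of the growth factor BMP4 and 1.5 µM CHIR, a GSK3 inhibitor that switches on WNT signalling, and the other was KO at 0 h, each with 3 libraries. The same step in wild-type cells (WT at 3 h against WT at 0 h, 3 libraries each) is set beside it and shares no library with it. All groups came from HUES6, a human embryonic stem cell line grown in FTDA medium, and polyadenylated RNA was sequenced with a stranded kit. The labels do not say how RBPMS was disrupted, how many clones were used, or whether replicates were grown apart. The p-values therefore measure only the spread between libraries, which may be technical. That spread was pooled over all 24 libraries of the series, so standard errors and p-values are not those of the compared libraries alone. Of 57820 genes, 19835 had enough reads to be tested.

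BMP ligands signal through SMAD1, SMAD5 and SMAD9 to genes such as the ID family, and WNT signalling stabilises beta-catenin, which acts with TCF and LEF factors. Together with NODAL, these pathways set up the primitive streak of the embryo, where epiblast cells turn on T-box factors such as TBXT and EOMES and begin to form mesoderm and endoderm. Within the first hours of a stimulus, immediate early genes such as EGR1 and FOS, which need no new protein to be transcribed, come before the lineage genes. RBPMS is an RNA-binding protein known to act in splicing and translation.

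RBPMS mRNA was present in both genotypes. It had 93.1, 90.5 and 104 CPM in KO 3 h libraries, against 158, 153 and 153 CPM in KO 0 h libraries, and 105, 105 and 107 CPM in WT 3 h libraries, against 155, 121 and 130.2 CPM in WT 0 h libraries, where CPM stands for counts scaled to the library's total. The KO level fell at 3 h, where ± is the standard error (log2 change -0.64 ± 0.082, adjusted p = 4.02e-07, limma). KO and WT values overlapped at 0 h, and at 3 h all KO values lay below the WT values. Such a count says nothing about protein, and the groups are those of the labels. The paralog RBPMS2 had 77.4, 80.3 and 119.7 CPM in KO 3 h libraries, against 75.5, 79.02 and 82.1 CPM in KO 0 h libraries, a difference that did not pass the threshold of adjusted p under 0.05 (log2 0.25 ± 0.12, adjusted p = 0.0694). Stem cell markers were present in every library: 7 of them summed to between 8217 and 9025 CPM in KO 3 h libraries, against 9408 to 9750.3 CPM in KO 0 h libraries, led by LIN28A. In bulk libraries such as these, fewer cells of a type and less RNA per cell cannot be told apart.

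The 6 KO libraries held 38899614, 38862978 and 46273311 reads at 3 h and 39529326, 40063493 and 38119546 reads at 0 h, so that a count of 0 allows up to 0.0648 to 0.0787 CPM (3 reads, counting error only). Of the 12 libraries used, 2 stood apart from their group. KO 3 h library 3 correlated at 0.988 to 0.989 with its mates, which correlated at 0.996 with each other (Pearson's r across genes on the log scale), and WT 0 h library 1 at 0.975 to 0.978, against 0.996 between its mates. Counts of lists that move by over 1.5 times without either library are given with and without it where the text uses them.

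Promoters show which control letters lie at the start of the genes that led the response. For the immediate early genes, WNT pathway targets and BMP pathway targets, the promoters of 2 of the members with the largest called rise are printed, as 250 bases before and 50 after the RefSeq start site (GRCh38.p14, 5′ to 3′ on the gene's strand), with matches to the motifs searched in capitals.
EGR1, chr5:138465229-138465528, plus strand: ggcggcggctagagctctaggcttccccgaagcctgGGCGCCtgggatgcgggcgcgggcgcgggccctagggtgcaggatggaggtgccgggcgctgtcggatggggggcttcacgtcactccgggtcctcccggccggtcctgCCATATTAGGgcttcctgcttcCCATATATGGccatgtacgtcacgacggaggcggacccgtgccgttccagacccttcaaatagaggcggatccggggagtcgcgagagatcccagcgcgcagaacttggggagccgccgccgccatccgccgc
ATF3, chr1:212565157-212565456, plus strand: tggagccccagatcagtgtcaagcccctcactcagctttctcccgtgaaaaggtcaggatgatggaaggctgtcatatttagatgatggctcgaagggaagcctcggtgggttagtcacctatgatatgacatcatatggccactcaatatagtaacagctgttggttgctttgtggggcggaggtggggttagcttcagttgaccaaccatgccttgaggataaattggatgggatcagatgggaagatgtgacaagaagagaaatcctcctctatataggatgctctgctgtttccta
CDX2, chr13:27969266-27969565, minus strand: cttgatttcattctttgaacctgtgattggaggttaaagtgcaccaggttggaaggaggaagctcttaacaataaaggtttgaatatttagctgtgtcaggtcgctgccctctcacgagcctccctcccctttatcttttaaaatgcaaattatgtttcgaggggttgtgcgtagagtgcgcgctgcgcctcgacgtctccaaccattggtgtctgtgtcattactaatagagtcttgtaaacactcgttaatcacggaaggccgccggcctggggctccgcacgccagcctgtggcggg
TBXT, chr6:166168606-166168905, minus strand: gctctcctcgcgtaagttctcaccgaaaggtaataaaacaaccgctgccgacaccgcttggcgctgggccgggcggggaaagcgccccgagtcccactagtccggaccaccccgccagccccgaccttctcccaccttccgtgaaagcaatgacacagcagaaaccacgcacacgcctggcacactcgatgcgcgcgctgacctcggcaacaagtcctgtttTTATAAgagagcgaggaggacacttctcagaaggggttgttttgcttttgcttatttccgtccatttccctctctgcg
ID3, chr1:23559452-23559751, minus strand: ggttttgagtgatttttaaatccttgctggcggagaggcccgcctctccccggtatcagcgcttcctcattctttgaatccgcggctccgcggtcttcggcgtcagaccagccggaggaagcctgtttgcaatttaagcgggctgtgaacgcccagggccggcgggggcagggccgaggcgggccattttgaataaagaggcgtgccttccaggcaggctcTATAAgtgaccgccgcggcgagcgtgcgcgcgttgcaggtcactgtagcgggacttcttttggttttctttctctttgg
TFAP2A, chr6:10419610-10419909, minus strand: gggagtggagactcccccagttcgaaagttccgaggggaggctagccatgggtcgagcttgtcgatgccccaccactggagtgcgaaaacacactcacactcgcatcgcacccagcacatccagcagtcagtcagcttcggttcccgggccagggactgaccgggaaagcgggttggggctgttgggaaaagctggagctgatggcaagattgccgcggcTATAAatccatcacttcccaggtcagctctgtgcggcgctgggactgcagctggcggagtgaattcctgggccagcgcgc
The motifs were searched on both strands. They were the TCF/LEF letters CTTTGAT and CTTTGTT, the GC-rich SMAD letters GGCGCC, the AP-1 letters TGANTCA, the CRE letters TGACGTCA, the CArG box bound by SRF, and the TATA letters TATAA, the last added after the sequences were seen. EGR1 held a pair of CArG boxes and 1 GGCGCC. TBXT, ID3 and TFAP2A each held TATAA just before the start site, which in TBXT reads on both strands within the same 6 letters. ATF3 and CDX2 held no match to any motif searched in these windows. Across 35116 RefSeq promoters of this length, 1.29% held a CArG box, 19.2% GGCGCC, 20.4% TATAA, 2.62% CTTTGAT and 5.20% CTTTGTT. Of the 26 immediate early genes called higher, 18 had a promoter entry and 2 of these held a CArG box. Of 17 WNT targets called higher, 8 had an entry, of which 2 held a CArG box, 3 GGCGCC and 1 CTTTGAT. Of 22 BMP targets called higher, 21 had an entry, of which 0 held a CArG box, 5 GGCGCC and 1 CTTTGAT.

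Most tested genes differed between the hours in KO cells. At 3 h, 6560 genes (33.1%) were called higher and 6464 (32.6%) lower than at 0 h, at an adjusted p under 0.05 over 19835 genes, and 2233 (11.3%) and 2725 (13.7%) did so by at least 1 on the log2 scale. The values of the 3 h and 0 h libraries did not overlap for 13400 genes (67.6%). With a background this broad, a count of called members says little unless it lies far from these shares, and sizes matter more. The median absolute log2 change was 0.56 and the 99th percentile 3.38. Changes are on the log2(CPM + 0.25) scale after TMM scaling, which understates those of genes with low levels.

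The largest rises were led by transcription factors of the primitive streak and of BMP and WNT signalling. EOMES, a T-box factor of the streak at chr3:27715949-27722711 (hg38), had 82.7, 90.9 and 102 CPM in KO 3 h libraries, against 0.177, 0.0998 and 0 CPM in KO 0 h libraries (log2 change 8.14 ± 0.14, adjusted p = 7.54e-22). All 3 libraries at 3 h lay far above a baseline of at most 7 reads per library. CDX1, a caudal homeobox factor and WNT target, had 34.2, 36.3 and 41.04 CPM in KO 3 h libraries, against 0, 0.025 and 0 CPM in KO 0 h libraries, where the 0 h libraries held 1 read in all. Its relative CDX2 had 28.3, 33.3 and 42.4 CPM in KO 3 h libraries and no read in KO 0 h libraries, which makes it at least 441-fold higher (against 3 reads per library). TBXT, also called brachyury, had 9.13, 8.05 and 12.2 CPM in KO 3 h libraries, against 0.0253, 0 and 0 CPM in KO 0 h libraries, where a single read lay behind the baseline and the ratio was 1151, with a 95% counting interval of 207 to 45482. NLRC3, an immune regulator, averaged 31.9 CPM at 3 h and 0.277 CPM at 0 h (log2 change 6.06), and SLC1A4, a neutral amino acid transporter, 32.6 and 0.409 CPM (log2 change 5.68). The cerebellin CBLN1 and the lysosomal membrane protein LAMP5 rose by 5.13 and 5.08 on the log2 scale, and the filamin-binding FILIP1L had 11.9 CPM at 3 h and 1 read over the 0 h libraries.

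**Figure D1:**
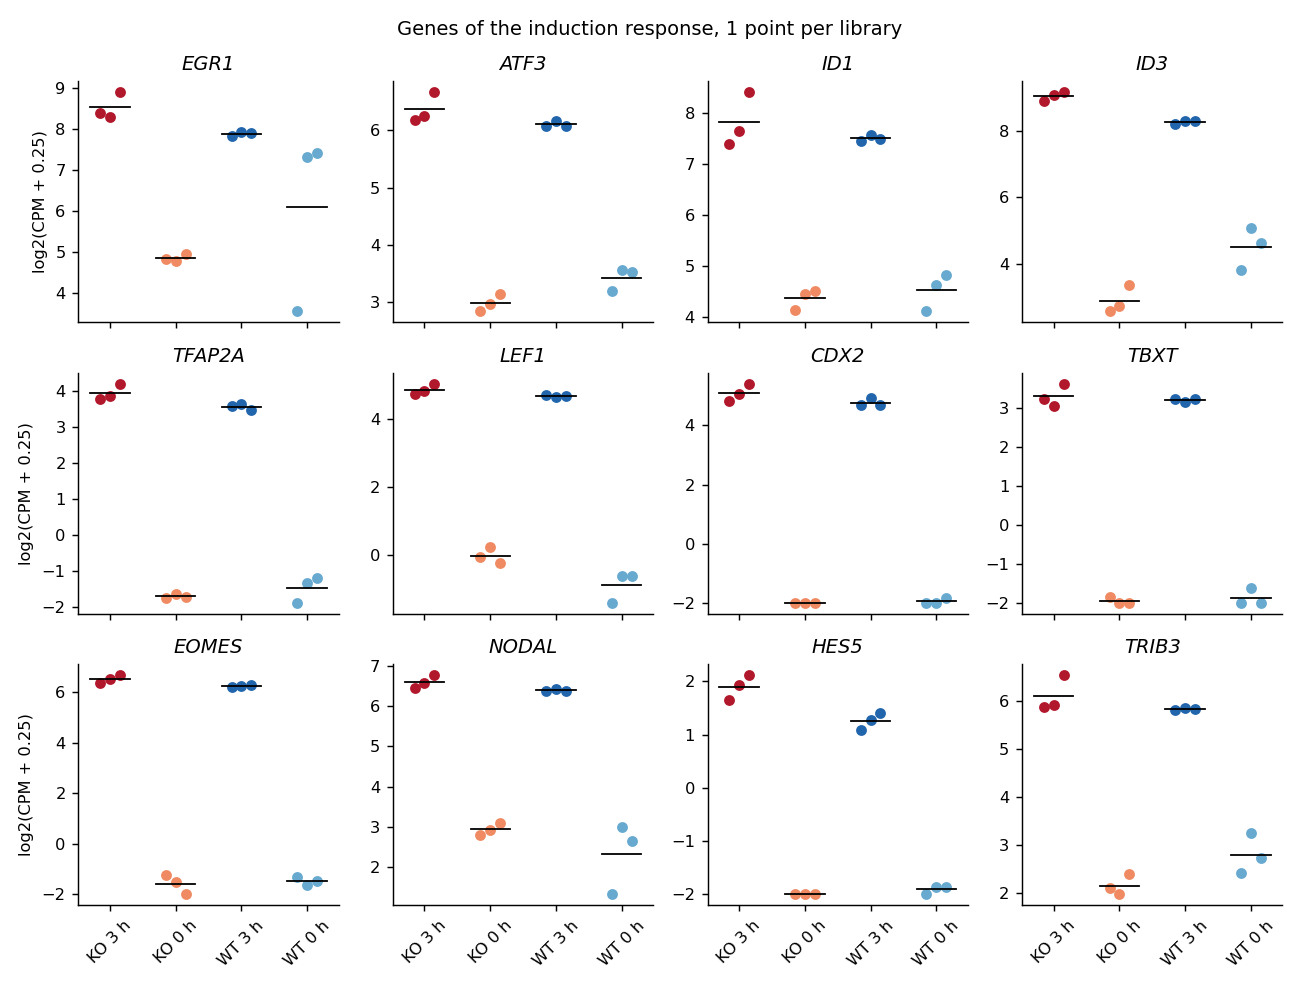
Levels of 12 genes of the induction response on the log2(CPM + 0.25) scale, 1 point per library and a bar at the mean of each group (KO 3 h, KO 0 h, WT 3 h, WT 0 h). In all 12 genes the KO 3 h libraries lie above the KO 0 h libraries without overlap, and EGR1 in WT 0 h library 1 lies far below the other WT 0 h libraries.

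Of the 36 immediate early genes listed, all tested, 26 were called higher in KO at 3 h and 3 lower, with a median log2 change of 1.49 against -0.01 over all genes tested. EGR1, the zinc finger factor whose CArG boxes are printed above, had 340, 316 and 482 CPM in KO 3 h libraries, against 28.1, 27.1 and 30.96 CPM in KO 0 h libraries (log2 change 3.74 ± 0.55, adjusted p = 2.81e-06). EGR3 had 22.5, 19.2 and 36.4 CPM in KO 3 h libraries, against 1.37, 1.7 and 1.52 CPM in KO 0 h libraries (log2 change 3.88 ± 0.2, adjusted p = 2.01e-13). Both were higher in every 3 h library, and highest in library 3, the one that stood apart. FOS, a subunit of the AP-1 factor, had 43.9, 43.9 and 56.5 CPM in KO 3 h libraries, against 9.74, 10.2 and 11.4 CPM in KO 0 h libraries (log2 change 2.22 ± 0.4, adjusted p = 4.13e-05), and FOSL1, another AP-1 subunit, 27.7, 27.3 and 40.1 CPM in KO 3 h libraries, against 2.43, 3.17 and 3.23 CPM in KO 0 h libraries. ATF3, an AP-1 family factor that also responds to stress, rose in all libraries, with 72.6, 76.4 and 102 CPM in KO 3 h libraries, against 6.88, 7.56 and 8.55 CPM in KO 0 h libraries (log2 change 3.44 ± 0.13, adjusted p = 1.26e-15). The memory-linked gene ARC had 10.5, 9.19 and 25.8 CPM in KO 3 h libraries, against 0.531, 0.649 and 0.892 CPM in KO 0 h libraries, the value of library 3 again being the highest. Levels were lower again at later hours: EGR1 averaged 62.6 CPM at 6 h and 3.67 CPM at 48 h in KO cells, and ATF3 15.4 and 12.2 CPM. Among genes of the FGF and ERK response the picture was mixed, with 11 of 23 higher and 7 lower, or 5 lower without KO 3 h library 1. DUSP6, a phosphatase that removes phosphates from ERK, had 103, 105 and 126 CPM in KO 3 h libraries, against 14.5, 12.03 and 12.7 CPM in KO 0 h libraries (log2 change 3.11 ± 0.22, adjusted p = 3.98e-11). DUSP5, a nuclear ERK phosphatase, rose by 1.87 and the survival gene IER3 by 3.13, while SPRY1, an inhibitor of receptor tyrosine kinase signalling, fell, with 6.27, 7.38 and 7.67 CPM in KO 3 h libraries, against 25.98, 26.4 and 27.3 CPM in KO 0 h libraries.

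BMP pathway targets had the largest share called higher of the 36 lists. Of 23 tested, 22 were called higher in KO at 3 h and 0 lower, with a median log2 change of 2.65. The BMP antagonist NOG was the only tested member that did not pass. The ID genes encode helix-loop-helix proteins that block differentiation factors and are direct SMAD targets. ID3 had 481, 542 and 577 CPM in KO 3 h libraries, against 5.67, 6.41 and 10.1 CPM in KO 0 h libraries (log2 change 6.22 ± 0.25, adjusted p = 2.06e-15). ID1 had 169, 201 and 343 CPM in KO 3 h libraries, against 17.4, 21.5 and 22.5 CPM in KO 0 h libraries (log2 change 3.51 ± 0.22, adjusted p = 4.05e-12), and ID4 139, 149.8 and 106 CPM in KO 3 h libraries, against 3.26, 4.17 and 4.12 CPM in KO 0 h libraries. Every ID gene was higher in all 3 h libraries, with ID2 moving least at 2.13 on the log2 scale. MSX2, a homeobox factor downstream of BMP, had 10.9, 12.6 and 11.95 CPM in KO 3 h libraries, against 0.253, 0.349 and 0.184 CPM in KO 0 h libraries (log2 change 4.61 ± 0.15, adjusted p = 3.44e-17). TFAP2A, an AP-2 factor of surface ectoderm and amnion, had 13.2, 14.1 and 18.04 CPM in KO 3 h libraries, against 0.0506, 0.0749 and 0.0525 CPM in KO 0 h libraries (log2 change 5.67 ± 0.19, adjusted p = 9.46e-17). GATA2 and GATA3, zinc finger factors of trophoblast and blood lineages, rose by 4.59 and 4.47, with at most 0.349 CPM of GATA2 and 0.0759 CPM of GATA3 in any KO 0 h library. At 48 h levels in KO cells were low again: TFAP2A averaged 0.268 CPM and MSX2 1.1 CPM.

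Of 22 WNT pathway targets tested, 17 were called higher in KO at 3 h and 0 lower, with a median log2 change of 2.18. Without KO 3 h library 3 these counts were 16 and 2. LEF1, a factor that carries beta-catenin to DNA, had 25.8, 27.5 and 32.3 CPM in KO 3 h libraries, against 0.708, 0.924 and 0.603 CPM in KO 0 h libraries (log2 change 4.91 ± 0.18, adjusted p = 2.86e-16). SP5, a feedback factor of the pathway, had 3.86, 3.94 and 6.61 CPM in KO 3 h libraries, against 0.885, 0.824 and 0.787 CPM in KO 0 h libraries (log2 change 2.23 ± 0.2, adjusted p = 1.38e-09). Both groups of libraries were well apart for these genes. AXIN2, the scaffold of the beta-catenin destruction complex often used as a reporter of WNT signalling, moved little: 33.6, 34.8 and 50.7 CPM in KO 3 h libraries, against 28.6, 28.9 and 30.9 CPM in KO 0 h libraries (log2 change 0.45, adjusted p = 0.04). That call ended without KO 3 h library 3 (adjusted p = 0.247) and under several other settings. CCND1, the G1 cyclin, had 416, 437 and 472 CPM in KO 3 h libraries, against 99.8, 104 and 102 CPM in KO 0 h libraries (log2 change 2.16 ± 0.13, adjusted p = 1.54e-12). Among WNT ligands and receptors 11 of 23 were higher and 9 lower. The streak ligand WNT3 had 14.8, 12.8 and 17.1 CPM in KO 3 h libraries, against 1.11, 0.874 and 1.08 CPM in KO 0 h libraries. WNT8A, another ligand of the streak, had 2.93, 2.8 and 3.004 CPM in KO 3 h libraries, against 0, 0.025 and 0 CPM in KO 0 h libraries. The receptor FZD10 rose by 4.29 on the log2 scale.

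In the NODAL and activin pathway 11 of 21 members tested were higher and 7 lower, with opposite moves among its ligands and antagonists. NODAL itself, a TGF-beta ligand of the streak, had 87.2, 95.2 and 109 CPM in KO 3 h libraries, against 6.65, 7.31 and 8.29 CPM in KO 0 h libraries (log2 change 3.72 ± 0.23, adjusted p = 4.43e-12). CER1, a secreted antagonist of NODAL, had 15.5, 16.5 and 16.9 CPM in KO 3 h libraries, against 0.961, 0.724 and 0.761 CPM in KO 0 h libraries (log2 change 4.01 ± 0.099, adjusted p = 3.86e-19), and follistatin, FST, which binds activin, 75.6, 78.4 and 80.4 CPM in KO 3 h libraries, against 13.8, 15.6 and 15.5 CPM in KO 0 h libraries. All 3 were higher without overlap. The co-receptor TDGF1 moved the other way, with 631, 653 and 534 CPM in KO 3 h libraries, against 1702, 1719 and 1687 CPM in KO 0 h libraries (log2 change -1.44 ± 0.086, adjusted p = 1.59e-12). LEFTY1 and LEFTY2, NODAL antagonists, split as well: LEFTY1 averaged 0.446 CPM at 3 h and 1.54 CPM at 0 h, and LEFTY2 1.72 and 0.595 CPM (log2 changes -1.29 and 1.24, both called). In the NOTCH pathway 9 of 17 were higher and 4 lower. HES5, a repressor switched on by NOTCH, had 2.88, 3.58 and 4.08 CPM in KO 3 h libraries and no read at 0 h, at least 44.6-fold higher. HEYL and NRARP, other targets of the pathway, rose by 2.82 and 2.17. The ligands DLL1 and DLL3 were lower: DLL1 had 0.848, 0.695 and 0.908 CPM in KO 3 h libraries, against 10.3, 10.6 and 10.9 CPM in KO 0 h libraries (log2 change -3.31 ± 0.27, adjusted p = 2.63e-10).

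Of 19 primitive streak genes tested, 16 were called higher and 2 lower, with a median log2 change of 1.73. Without KO 3 h library 1 only 1 was lower. EOMES, TBXT, CDX1 and CDX2 were far above baseline, while MIXL1, a homeobox factor of the streak, had 2.78, 4.19 and 3.28 CPM in KO 3 h libraries, against 1.29, 1.55 and 1.15 CPM in KO 0 h libraries (log2 change 1.25 ± 0.16, adjusted p = 4.98e-07). GSC, a homeobox factor of the organizer, had 0.154, 0.0515 and 0.389 CPM in KO 3 h libraries, against 0.0253, 0.025 and 0.0525 CPM in KO 0 h libraries, levels within a few reads of the floor, and its call (adjusted p = 0.0169) ended without KO 3 h library 3 (adjusted p = 0.174). MESP1, a factor of early cardiac mesoderm, was at or under 0.0759 CPM in all 6 libraries. At 48 h in KO cells EOMES averaged 503 CPM, MIXL1 533 CPM and CER1 2539 CPM, and EOMES at 6 h averaged 9.57 CPM. GATA6, a factor of endoderm and heart, had 0.231, 0.412 and 0.519 CPM in KO 3 h libraries, against 0.0253, 0.0998 and 0.0262 CPM in KO 0 h libraries (log2 change 1.09 ± 0.23, adjusted p = 0.000206). Among genes of the mesenchymal switch 8 of 13 were higher and 3 lower. ZEB2, a repressor of epithelial genes, had 7.89, 10.04 and 10.5 CPM in KO 3 h libraries, against 0, 0.15 and 0.0525 CPM in KO 0 h libraries (log2 change 4.99 ± 0.21, adjusted p = 4.85e-15), and the homeobox factor PRRX1 rose by 4.68, but the filament gene VIM was lower (-1.04).

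By members called, cardiac, endoderm and amnion lists were mostly higher, and neuroectoderm and paraxial lists were mixed. Of 16 cardiac and lateral plate genes 10 were higher and 1 lower, of 10 definitive endoderm genes 7 and 2, of 12 amnion and trophoblast genes 9 and 1, of 13 neuroectoderm genes 6 and 4, and of 10 paraxial genes 3 and 3. Without KO 3 h library 3, 2 amnion and trophoblast genes were lower. Summed levels did not all follow these counts. The cardiac list averaged 130 CPM at 3 h and 467 CPM at 0 h, the endoderm list 50.3 and 47.0 CPM, and the amnion list 973 and 517 CPM. Most of the cardiac sum at both hours was KDR, the only cardiac member called lower, whose values follow below. The fall of that sum therefore does not describe the other cardiac members, which were not summed apart. The 4 defining endoderm markers summed to 2.11 to 2.62 CPM in KO 3 h libraries, against 2.60 to 3.11 CPM in KO 0 h libraries. HHEX, the highest of them at 3 h, moved against the sum, averaging 1.87 CPM at 3 h and 0.775 CPM at 0 h. At each hour 3 of the 4 averaged under 1 CPM. The 6 defining amnion markers summed to 60.5 to 67.9 CPM, against 50.9 to 52.0 CPM. The receptor KDR, a marker of vascular and lateral mesoderm that stem cells also express, was lower at 3 h: it had 82.5, 89.6 and 123 CPM in KO 3 h libraries, against 481, 432 and 428 CPM in KO 0 h libraries (log2 change -2.15 ± 0.13, adjusted p = 2.13e-12). RUNX1, a blood factor, was higher, with 5.91, 6.82 and 8.49 CPM in KO 3 h libraries, against 0.101, 0.125 and 0.289 CPM in KO 0 h libraries (log2 change 4.17 ± 0.17, adjusted p = 1.76e-15). SOX11, a factor of neural and epithelial progenitors, fell to 27.1 CPM at 3 h, against 78.4 CPM at 0 h, and SOX3 rose to 31.6 CPM, against 4.28 CPM. Of 11 fibroblast and stroma genes tested, 7 were higher and 4 lower (median log2 change 0.68), and both type I collagen genes were among the lower ones. COL1A2 had 3.39, 3.55 and 6.92 CPM in KO 3 h libraries, against 123, 121 and 119.8 CPM in KO 0 h libraries (log2 change -4.67 ± 0.17, adjusted p = 2.37e-16), and COL1A1 45.1, 40.3 and 106 CPM in KO 3 h libraries, against 264, 282 and 280.3 CPM in KO 0 h libraries, with KO 3 h library 3 above its mates for both. The 8 defining fibroblast markers summed to 479.7 to 497 CPM in KO 3 h libraries, against 639.6 to 668 CPM in KO 0 h libraries, although the highest of them, THY1, averaged 391 CPM at 3 h and 252 CPM at 0 h. Over the whole list the sum averaged 848 CPM at 3 h and 858 CPM at 0 h. The defining blood markers summed to 3.91 to 5.83 CPM in KO 3 h libraries, against 1.37 to 1.70 CPM in KO 0 h libraries. The highest of them, TAL1, averaged 2.63 CPM at 3 h and 0.135 CPM at 0 h. Of 9 blood and endothelium genes tested, 5 were higher and 3 lower, and the whole list summed to 22.2 CPM at 3 h and 37.1 CPM at 0 h on average.

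Pluripotency genes moved unevenly. Of 28 tested, 15 were called lower in KO at 3 h and 3 higher, with a median log2 change of -0.37. POU5F1, the core factor OCT4, had 1899.8, 1982 and 2131 CPM in KO 3 h libraries, against 1768, 2044 and 2112 CPM in KO 0 h libraries (log2 change 0.07, adjusted p = 0.561), so that no change was called. SOX2 had 177, 182 and 133 CPM in KO 3 h libraries, against 311, 341 and 335 CPM in KO 0 h libraries (log2 change -0.97 ± 0.11, adjusted p = 8.35e-08), and NANOG 82.8, 87.8 and 63.6 CPM in KO 3 h libraries, against 192, 176 and 168 CPM in KO 0 h libraries (log2 change -1.15 ± 0.11, adjusted p = 3.19e-09). Both were lower in each 3 h library. ZFP42, known as REX1, had 24.9, 25.8 and 22.2 CPM in KO 3 h libraries, against 213, 210.3 and 211 CPM in KO 0 h libraries (log2 change -3.06 ± 0.18, adjusted p = 1.40e-12), and DPPA2, a chromatin regulator of stem cells, 6.07, 6.07 and 5.29 CPM in KO 3 h libraries, against 50.1, 51.4 and 51.1 CPM in KO 0 h libraries (log2 change -3.03 ± 0.09, adjusted p = 1.01e-17). Both levels were higher again later, with ZFP42 at 194 CPM and DPPA2 at 27.2 CPM at 48 h in KO cells. KLF5, a Krüppel-like factor of stem cells and epithelia, went against the list and rose to 38.6 CPM at 3 h, against 7.43 CPM at 0 h. DNMT3L, a cofactor of DNA methylation, had 3 reads over the KO 3 h libraries and 0.784, 0.899 and 0.839 CPM in KO 0 h libraries.

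**Figure D2:**
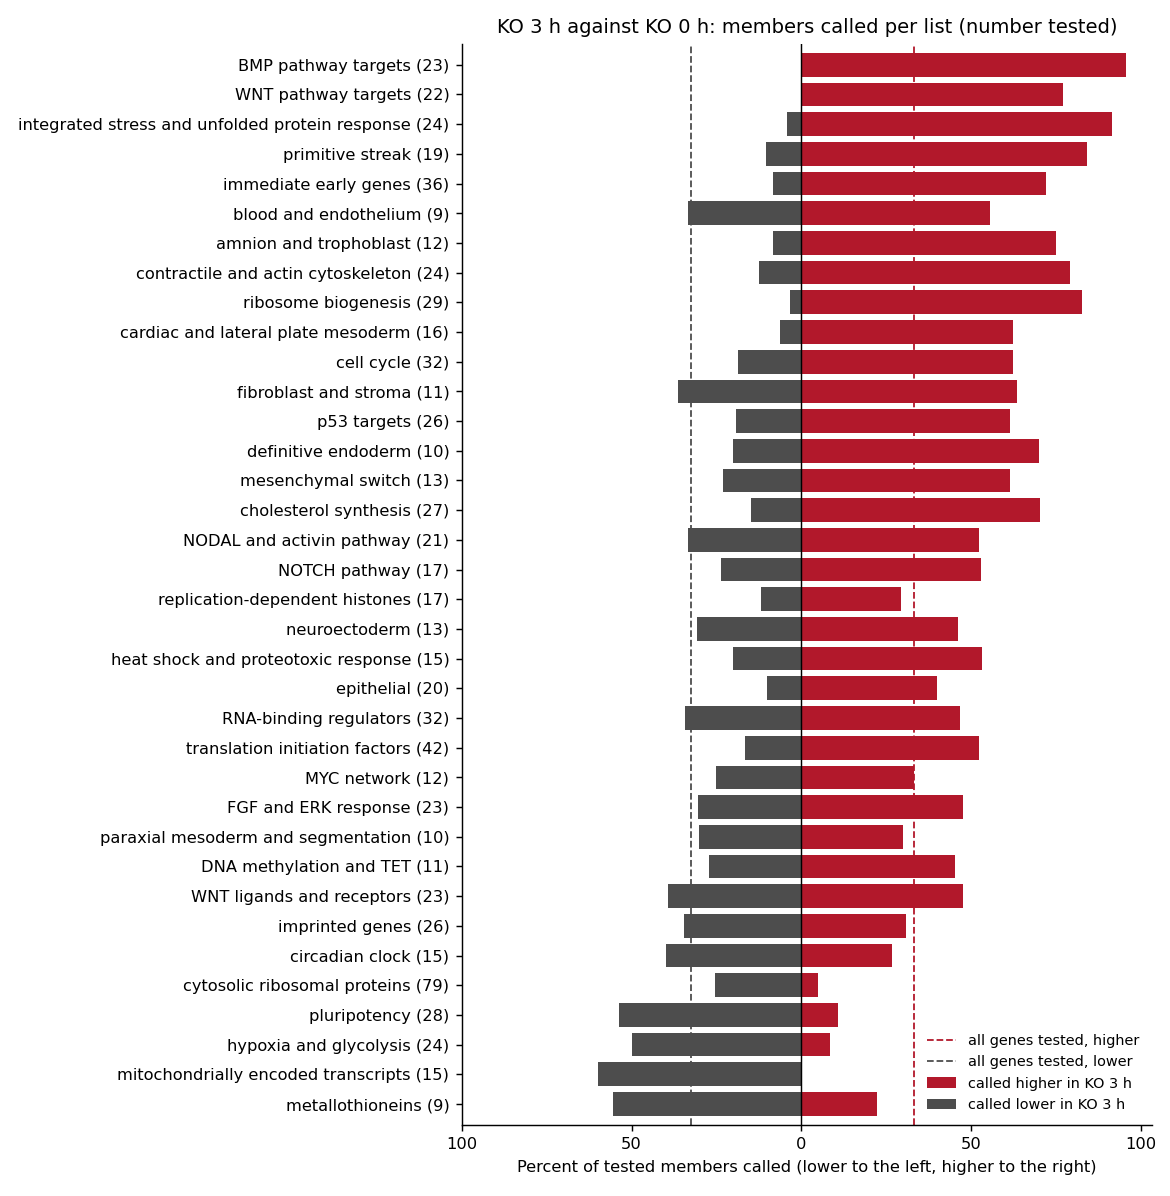
Percent of tested members of each list called higher (to the right) and lower (to the left) in KO 3 h against KO 0 h libraries, ordered by median log2 change, with dashed lines at 33.1% and 32.6% for all genes tested. BMP pathway targets, WNT pathway targets and stress genes lie far to the right, and metallothioneins, mitochondrially encoded transcripts and hypoxia genes at the bottom.

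Stress genes were higher alongside the signalling targets. Of 24 genes of the integrated stress and unfolded protein response, 22 were higher and 1 lower, with a median log2 change of 2.08, beside 2.18 for WNT targets; 2 were lower without KO 3 h library 3. TRIB3, a pseudokinase induced by the factor ATF4, had 58.4, 60.2 and 93.2 CPM in KO 3 h libraries, against 4.02, 3.67 and 5.04 CPM in KO 0 h libraries (log2 change 4.01 ± 0.17, adjusted p = 5.01e-15). XBP1, a factor of the unfolded protein response, had 169, 172 and 226 CPM in KO 3 h libraries, against 39.2, 46.6 and 46.3 CPM in KO 0 h libraries (log2 change 2.14 ± 0.095, adjusted p = 1.11e-14). SESN2, a stress-induced inhibitor of mTORC1, had 91.6, 89.2 and 145 CPM in KO 3 h libraries, against 9.18, 10.3 and 12.8 CPM in KO 0 h libraries. In each of these the groups were well apart, and library 3 was the highest. The list's median was close in the 3 libraries at 3 h, at 1.93, 1.96 and 1.94 above the KO 0 h mean. Of 26 p53 targets, 16 were higher and 5 lower (3 lower without KO 3 h library 2), led by SESN2, which lies in both lists, and by the growth arrest gene GADD45A (3.48). Heat shock genes split, 8 higher and 3 lower of 15, with the chaperone HSPA1A lower: it had 5.84, 5.2 and 5.71 CPM in KO 3 h libraries, against 17.1, 20.2 and 21.1 CPM in KO 0 h libraries (log2 change -1.70 ± 0.14, adjusted p = 5.53e-10).

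Genes of ribosome production were mostly higher: 24 of 29 ribosome biogenesis factors were higher and 1 lower (median log2 change 0.76; 2 lower without KO 3 h library 1), among them RRS1, a factor of the large subunit, with 70.9, 73.7 and 86.8 CPM in KO 3 h libraries, against 15.3, 18.6 and 19.7 CPM in KO 0 h libraries. Of 42 translation initiation factors 22 were higher and 7 lower, as EIF5, with 329, 329.9 and 389 CPM in KO 3 h libraries, against 124, 127 and 129 CPM in KO 0 h libraries (log2 change 1.51 ± 0.09, adjusted p = 1.69e-12). Among 32 cell cycle genes 20 were higher and 6 lower. RRM2, the regulated subunit of ribonucleotide reductase, had 334, 345 and 419.5 CPM in KO 3 h libraries, against 56.3, 63.1 and 67.6 CPM in KO 0 h libraries (log2 change 2.60 ± 0.14, adjusted p = 5.27e-13), and CDC6, which loads the replicative helicase, 227, 242 and 269.8 CPM in KO 3 h libraries, against 66.1, 70.1 and 68.3 CPM in KO 0 h libraries. Both rose in every library. Of 24 contractile and actin genes 19 were higher and 3 lower (1 lower without KO 0 h library 2), with higher ones including the actin-binding TAGLN, at 214 CPM at 3 h and 58.02 CPM at 0 h. Of 27 genes of cholesterol synthesis 19 were higher and 4 lower. The splicing factors MBNL3 and SRSF3 were among the higher RNA-binding regulators. MBNL3, a muscleblind splicing factor, had 215, 224 and 175 CPM in KO 3 h libraries, against 10.8, 8.39 and 8.68 CPM in KO 0 h libraries (log2 change 4.48 ± 0.14, adjusted p = 1.35e-17), and SRSF3, a serine-rich splicing factor, 1225, 1289.6 and 1007 CPM in KO 3 h libraries, against 310, 315 and 324 CPM in KO 0 h libraries. Of 32 RNA-binding regulators 15 were higher and 11 lower.

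Hypoxia and glycolysis genes moved the other way. Of 24 tested, 12 were lower in KO at 3 h and 2 higher (median log2 change -0.53), with 1 to 3 higher when a KO 3 h library was left out. ANKRD37, a target of hypoxia-inducible factors, had 0.617, 0.823 and 0.692 CPM in KO 3 h libraries, against 8.5, 7.21 and 8.24 CPM in KO 0 h libraries (log2 change -3.06 ± 0.18, adjusted p = 1.70e-12), and PFKFB4, which controls glycolytic flux, 26.8, 31.98 and 36.5 CPM in KO 3 h libraries, against 129.6, 120.3 and 123 CPM in KO 0 h libraries (log2 change -1.92 ± 0.15, adjusted p = 1.77e-10). The histone demethylase KDM3A fell by 1.39 and hexokinase HK2 by 0.77. In WT cells the same list had 10 higher and 4 lower (median 0.36), against a share of 28.6% higher and 27.1% lower over all genes. Against the KO 0 h mean, its median was -0.63, -0.65 and -0.53 in KO 3 h libraries and -0.52, -0.46 and -0.51 in WT 3 h libraries. In WT 0 h libraries 1, 2 and 3 it was -0.05, -1.24 and -0.95. The list's median in WT 3 h libraries was thus above that of WT 0 h libraries 2 and 3 but below that of library 1. The test of the difference between the KO and the WT change, an interaction term, called 15 of 24 lower and 0 higher, where it called 5.45% of all genes lower and 3.59% higher. That count varied with single libraries: it was 22 without WT 0 h library 1, 7 without WT 3 h library 2, and 2 when the 12 libraries alone were fitted. The summed level of the list was 10553 to 11032 CPM in KO 3 h libraries, against 15389 to 15713 CPM in KO 0 h libraries, and 12237 to 12610.1 CPM in WT 3 h libraries, against 6779 to 16874 CPM in WT 0 h libraries. Of 15 clock genes 6 were lower and 4 higher in KO (8 lower without KO 3 h library 3). PER3 had 2.52, 2.24 and 2.9 CPM in KO 3 h libraries, against 36.5, 31.3 and 29.4 CPM in KO 0 h libraries (log2 change -3.50 ± 0.24, adjusted p = 1.45e-11), while PER2 rose by 2.13.

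Among metallothioneins, small proteins that bind zinc and copper, MT1G and MT1H gave opposite changes in the genotypes. MT1G had 0.36, 0.257 and 0.0216 CPM in KO 3 h libraries, against 87.6, 93.9 and 104 CPM in KO 0 h libraries (log2 change -7.74 ± 0.22, adjusted p = 5.07e-18). In WT cells it had 55.8, 61.1 and 62.3 CPM at 3 h, against 22.7, 35.98 and 39.1 CPM at 0 h. MT1H had 0, 0.129 and 0.0216 CPM in KO 3 h libraries, against 5.36, 5.39 and 6.16 CPM in KO 0 h libraries, and 11.4, 11.7 and 10.9 CPM in WT 3 h libraries, against 1.19, 0.399 and 0.163 CPM in WT 0 h libraries. KO cells had almost no MT1G or MT1H reads at the hour when WT cells had more than before induction. The difference between the KO and WT changes was -8.74 ± 0.31, adjusted p = 3.14e-15 for MT1G and -8.36 ± 0.42, adjusted p = 1.46e-12 for MT1H on the log2 scale. Over the list, 5 of 9 were lower and 2 higher in KO (MT1E and MT2A), 6 were higher and 0 lower in WT, and the difference was called lower for 7, a count of 4 when KO 0 h library 2 was dropped, 9 when KO 3 h library 1 was and 3 with only the 12 libraries fitted. Members of this family resemble each other closely, so reads may be shared between them.

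The steepest falls were of genes that nearly vanished from the KO libraries at 3 h. MEG3, an imprinted long noncoding RNA at chr14:100779410-100861031 (hg38), had 0.0771, 0.0515 and 0.0864 CPM in KO 3 h libraries, against 998, 890.2 and 898 CPM in KO 0 h libraries (log2 change -11.48 ± 0.27, adjusted p = 2.43e-19), which is 9 reads over the 3 libraries at 3 h. WT cells still had it, with 146, 132 and 126 CPM at 3 h, against 284, 794 and 1104 CPM at 0 h. The neighbouring imprinted RNA MEG9 had no read in KO 3 h libraries, against 10.9, 10.9 and 13.9 CPM in KO 0 h libraries, at least 154-fold lower. In WT it averaged 2.37 CPM at 3 h and 15.6 CPM at 0 h. CBR1, carbonyl reductase 1, had 0.103, 0.0772 and 0.0432 CPM in KO 3 h libraries, against 29.5, 32.4 and 36.8 CPM in KO 0 h libraries (log2 change -6.65 ± 0.16, adjusted p = 3.86e-19), and 18.4, 19.3 and 17.7 CPM in WT 3 h libraries. The zinc finger genes ZNF558, ZNF844 and ZNF22 also nearly vanished. ZNF558 had 0.0771, 0 and 0.0216 CPM in KO 3 h libraries, against 22.03, 19.3 and 21.3 CPM in KO 0 h libraries. ZNF844 had 0.18, 0.257 and 0.475 CPM in KO 3 h libraries, against 28.97, 28.7 and 27.6 CPM in KO 0 h libraries, and ZNF22 0.617, 0.72 and 0.562 CPM in KO 3 h libraries, against 54.8, 57.8 and 55.9 CPM in KO 0 h libraries. In WT 3 h libraries these 3 genes averaged 25.03, 28.5 and 48.8 CPM, against WT 0 h means of 20.9, 22 and 59.1 CPM. The protease CTSF had 3 reads in all at 3 h in KO, against 11, 13.6 and 14.6 CPM at 0 h, and M1AP, a meiosis gene, 0.0514, 0.0515 and 0.0216 CPM, against 16.7, 14.9 and 14.7 CPM. Both were also lower at 3 h in WT, where CTSF averaged 1.39 CPM at 3 h and 6.49 CPM at 0 h and M1AP 2.16 and 7.28 CPM. NNAT, an imprinted membrane protein gene, had 4 reads in all at 3 h, against 3.16, 3.1 and 3.15 CPM at 0 h. Of 26 imprinted genes tested, 9 were lower and 8 higher, with PHLDA2, a placental growth regulator, among the higher ones at 12.6 CPM at 3 h and 1.09 CPM at 0 h. PEG3 had 1 read over the 6 KO libraries.

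By a rule chosen after the values had been seen (at most 0.5 CPM in all libraries of one hour and at least 5 CPM in all of the other), 33 genes were off at 3 h in KO cells and 27 were on. The same rule found 0 genes off and 20 on in WT cells. Only 16 of the 33 had at least 5 CPM in every WT 0 h library, so the rule could not find the others off in WT. All 33 were also at or under 0.5 CPM in every KO library at 6 h, and 21 were back at 5 CPM or more in every KO library at 48 h. In WT cells 13 of the 33 had at least 5 CPM in every 3 h library. The 33 included MGMT, a DNA repair enzyme, with 0 to 0.0771 CPM in KO 3 h libraries and 5.44 to 6.69 CPM in KO 0 h libraries, CFLAR, an inhibitor of caspase-8, with 0.129 to 0.259 and 8.86 to 10.7 CPM, and 7 ZNF genes, 5 of which had at least 5 CPM in every WT 3 h library. The labels do not say whether KO libraries of different hours came from 1 culture. Hour and culture therefore cannot be told apart for these genes, nor for any other KO change from 0 to 3 h. Of the 27 genes that were on, 20 had at least 5 CPM in every WT 3 h library too, and 3 still had 5 CPM or more in every KO library at 48 h.

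**Figure D3:**
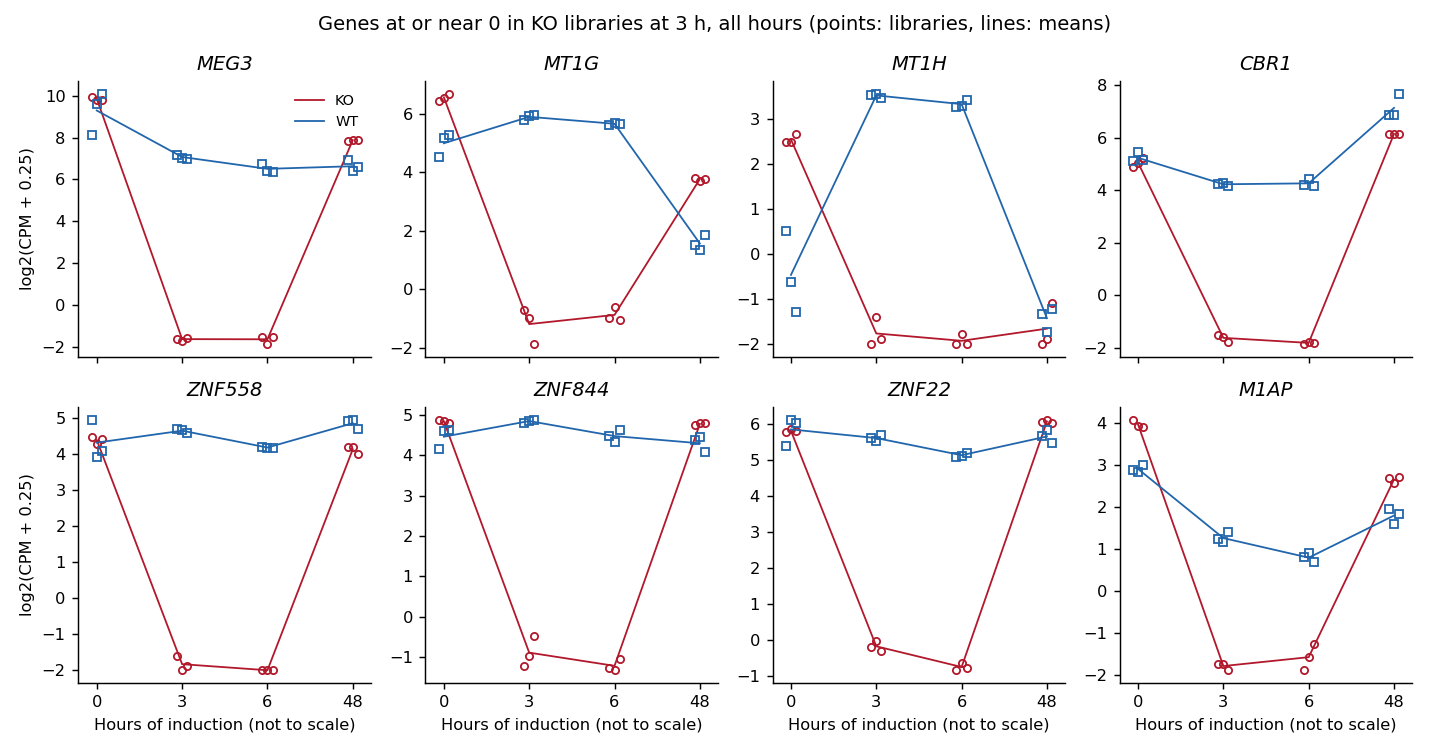
Levels of 8 genes at 0, 3, 6 and 48 h in KO and WT libraries on the log2(CPM + 0.25) scale, with points for libraries and lines through group means. The KO libraries drop to or near the lower end of the scale at 3 and 6 h, and 7 of the 8 genes are well above it again at 48 h, MT1H being the exception.

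Some changes varied in size, or in the members called, with single libraries. Of 15 mitochondrially encoded transcripts, 9 were lower in KO at 3 h and 0 higher, and in WT 10 were lower and 0 higher. With 1 KO library left out, 8 to 12 of these transcripts were lower in KO. They took 5.24%, 3.13% and 3.12% of reads in KO 3 h libraries, against 6.67%, 7.36% and 7.26% in KO 0 h libraries, so that library 1 at 3 h held most. The ribosomal RNA MT-RNR2 had 15090.3, 10004 and 9379 CPM in KO 3 h libraries, against 27233, 29622 and 30008 CPM in KO 0 h libraries (log2 change -1.31 ± 0.18, adjusted p = 1.19e-06). Of 79 cytosolic ribosomal protein genes 4 were higher and 20 lower. Their median against the KO 0 h mean was -0.04, 0.05 and -1.02 in KO 3 h libraries 1, 2 and 3, so library 3 stood below its mates. Without that library 8 were higher and 3 lower, with a median of 0.01, against -0.34 with it, and with library 2 left out 48 were lower. RPL39 had 563, 614 and 168 CPM in KO 3 h libraries, against 1120.3, 1194 and 1112 CPM in KO 0 h libraries. Counts of replication-dependent histone genes also moved with library 3, with 5 higher and 2 lower of 17, and 8 and 0 without it. Their median against the KO 0 h mean was 0.49, 0.62 and 0.34 in KO 3 h libraries 1, 2 and 3. Library 3 was the lowest here too, but by much less than for ribosomal proteins.

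**Figure D4:**
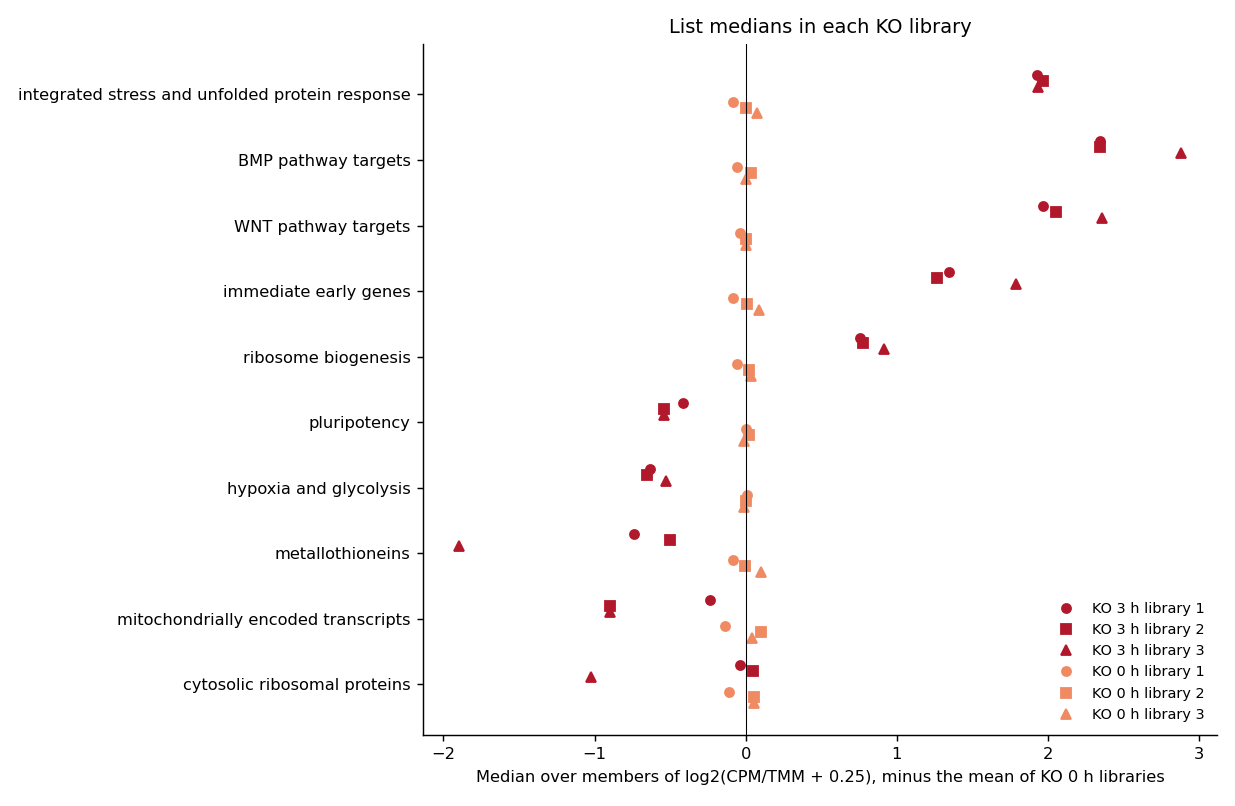
Median of 10 lists in each KO library, as log2 difference from the mean of the KO 0 h libraries. Library 3 at 3 h lies apart from its mates for cytosolic ribosomal proteins and metallothioneins and library 1 at 3 h for mitochondrially encoded transcripts, while stress and hypoxia genes agree across the 3 libraries.

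Beside the WT step from 0 to 3 h, the KO response was mostly shared. Across 19835 genes the KO and WT log2 changes correlated at r = 0.856, a description across genes, which are not independent replicates. Of the 4958 genes called in KO with a log2 change of at least 1, 4318 (87.1%) were called in the same direction in WT, 23 in the opposite one, and for 1072 (21.6%) the difference itself was called. Over all genes the difference was called higher in KO for 713 (3.59%) and lower for 1081 (5.45%), a split of 39.7% higher that became 49.97% when the deposited CPM were used without TMM scaling. Without WT 0 h library 1 the counts were 2425 and 2686, and with only the 12 libraries of these groups fitted they were 144 and 466.

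For the leading streak genes no difference between the KO and WT changes was called. It was 0.37 ± 0.19, adjusted p = 0.262 for EOMES, 0.39 ± 0.34, adjusted p = 0.531 for CDX2 and 0.16 ± 0.19, adjusted p = 0.667 for TBXT, with 95% intervals of ± 0.403, ± 0.704 and ± 0.398 on the log2 scale. ID3 had a larger change in KO by 2.35 ± 0.35, adjusted p = 9.69e-05. Its WT levels were 298, 313 and 317 CPM at 3 h, against 13.8, 33.4 and 24.6 CPM at 0 h, so that KO was higher after induction and lower before it. DUSP6 changed more in KO by 1.92 ± 0.32, adjusted p = 0.000287, with 79.4, 75.99 and 81.3 CPM in WT 3 h libraries, against 64.01, 37.1 and 20.9 CPM in WT 0 h libraries. EGR1 rose in both, and the difference did not pass (1.84 ± 0.77, adjusted p = 0.146), with WT 0 h library 1 at 11.5 CPM and its mates at 159 and 172 CPM. The noncoding RNA LINC01036 had 35.04, 37.3 and 20.96 CPM in KO 3 h libraries, against 0.0506, 0.125 and 0.0262 CPM in KO 0 h libraries, and 3.8, 3.19 and 2.96 CPM in WT 3 h libraries, against 4.1, 0.025 and 0.109 CPM in WT 0 h libraries. BCHE, butyrylcholinesterase, and the centrosomal gene CEP85L also changed more in KO, by 2.22 and 2.21. Several stem cell genes had a lower change in KO than in WT. ZFP42 had 128, 124 and 125 CPM in WT 3 h libraries, against 108, 256 and 245 CPM in WT 0 h libraries (difference -2.57 ± 0.25, adjusted p = 2.38e-07), and the differences for DPPA2, NANOG and TDGF1 were -2.08, -0.93 and -0.70, all called. CER1 and SP5 rose less in KO, with differences of -1.02 and -1.12. The SP5 call ended with a pseudocount of 1 (adjusted p = 0.206) and with only the 12 libraries fitted (adjusted p = 0.0739). Over the pluripotency list 10 of 28 differences were called lower and 0 higher, a count of 7 when KO 3 h library 1 was dropped and of 13 when library 3 of that group was, and 2 were higher without WT 0 h library 1. With only the 12 libraries fitted, 5 were lower. Of the immediate early genes 9 of 36 were called higher and 2 lower, but 17 and 3 without WT 0 h library 1 and 5 higher without KO 0 h library 2. With only the 12 libraries fitted, 2 were higher and 0 lower.

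**Figure D5:**
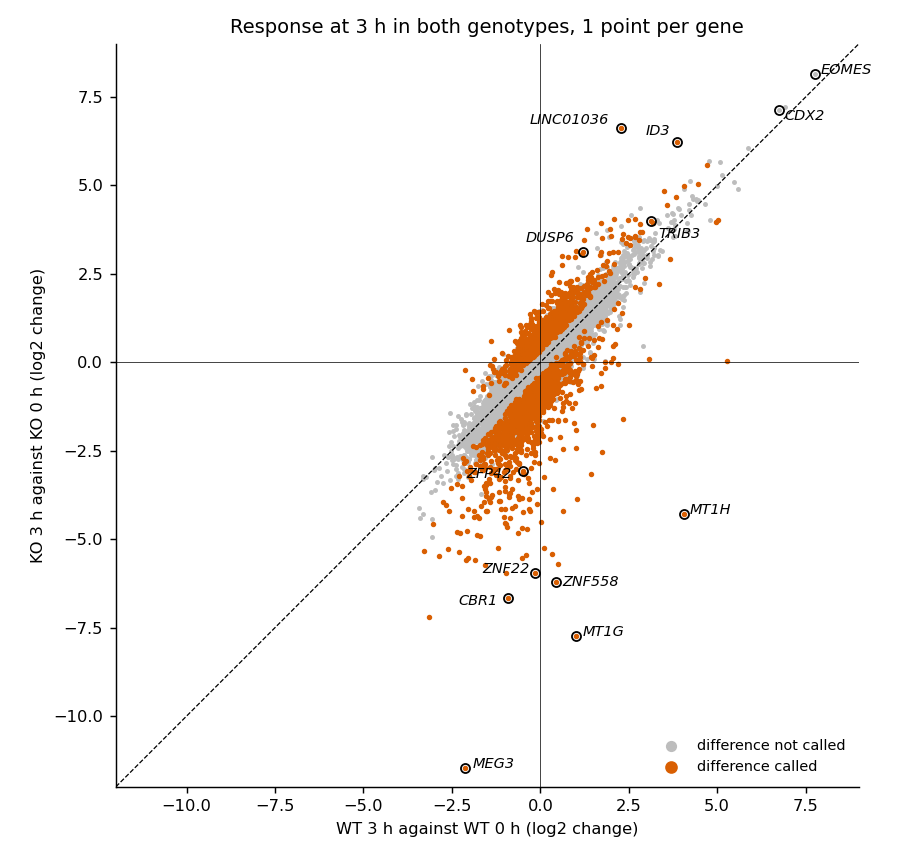
Log2 change of each of 19835 genes from 0 to 3 h in KO cells (vertical axis) against that in WT cells (horizontal axis), with the diagonal dashed and genes whose difference was called in orange. Most genes follow the diagonal (r = 0.856), and MEG3, MT1G, MT1H, CBR1 and ZNF558 lie far below it.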

How the data were processed

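Polyadenylated RNA of 24 HUES6 libraries (8 groups of 3) was measured, and 12 libraries enter the comparisons here. The authors deposited CPM per gene, which are not divided by gene length, and raw counts per transcript. DESeq2 and build hg38 are named per the submitters' processing notes, and the aligner, the counter and the annotation release are not given in the sources used here. A header shifted by 1 cell in the deposited CPM table was undone, and the column names were checked against the deposited transcript counts over 9473 genes: all 24 columns matched their own group best, and 22 their own library. All values were whole multiples of 1 read (tolerance 0.1 read), so reads were recovered. Library totals ran between 29896358 and 50451908 reads. Depth sets a floor of 0.0595 to 0.1 CPM for 3 reads, and floors and intervals cover counting error only.

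Genes passing edgeR's expression filter (at least 10 reads, 15 in all; 19835 genes) were scaled by TMM and tested with limma (trend) on log2(CPM + 0.25), with all 8 groups in 1 fit, no covariates and Benjamini-Hochberg adjusted p under 0.05. The difference of the KO and WT changes was an interaction term. The alternatives were other scaling, edgeR and DESeq2 on the recovered reads, other filters and pseudocounts, the 12 libraries alone, a library-number block, array weights and left-out libraries. In simulated KO 3 h against KO 0 h data over 19835 genes, 80% of genes changed 2-fold, 98% of those changed 4-fold and 26% of those changed 1.5-fold were found, with 7 false calls of 146. For the difference between KO and WT changes the shares were lower, at 54%, 84% and 16%, with 4 false calls of 112. The simulated data had only 50 genes changed at each fold, in KO 3 h libraries alone, and no library made to stand apart. In the real data 33.1% of genes were called higher and 32.6% lower in KO, and 2 libraries stood apart. These rates may therefore not hold for the real data. Versions were R 4.3.3, limma 3.58.1, edgeR 4.0.16, DESeq2 1.42.0 and Python 3.11.15. Symbols were found for 39880 of 57820 gene IDs.

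Genes were named by rule: the 12 largest rises and 12 largest falls called without overlap and at 5 CPM or more, the 6 largest differences each way, up to 4 members of each of 36 lists by adjusted p, and a fixed set of markers. MGMT, CFLAR, NOG and the genes of the closing observations were chosen after their values were seen. Members and lists were chosen with earlier results of these data known. Promoters are from RefSeq, and promoters of genes on chromosome 8 were left out. Some results are not reported here.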

Additional observations from a re-analysis of the deposited data

Results flagged for a closer look

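The genes below are those named in the report whose change from 0 to 3 h differed between KO and WT cells by a test of the difference itself (interaction term, limma, Benjamini-Hochberg adjustment over 19835 genes). Values are the KO change minus the WT change on the log2(CPM + 0.25) scale, so a positive value is a change that was more positive in KO. Among transcripts that nearly vanished in KO at 3 h the differences were MEG3 (-9.35), MT1G (-8.74), MT1H (-8.36), CBR1 (-5.75), ZNF558 (-6.65), ZNF22 (-5.82), ZNF844 (-6.18), M1AP (-4.18), MEG9 (-3.49), CTSF (-3.74) and NNAT (-3.48). Among signalling, streak and lineage genes the differences were ID3 (2.35), ID4 (0.60), ID2 (-0.55), SP5 (-1.12), WNT3 (1.27), CER1 (-1.02), TDGF1 (-0.70), HES5 (0.74), DLL3 (-1.54), PRRX1 (0.83), VIM (-0.57), SOX3 (1.00), KDR (-1.09), COL1A2 (-3.72) and COL1A1 (-1.43). Among stem cell genes the differences were ZFP42 (-2.57), DPPA2 (-2.08), NANOG (-0.93), KLF5 (-0.56) and DNMT3L (-0.98). Among immediate early, ERK and stress genes the differences were ARC (2.23), DUSP6 (1.92), IER3 (1.41), ATF3 (0.66), FOSL1 (0.94), SESN2 (0.80), GADD45A (1.15), TRIB3 (0.86), XBP1 (0.58) and HSPA1A (-0.94). Among growth, hypoxia and clock genes the differences were CDC6 (0.53), RRM2 (1.01), EIF5 (0.73), SRSF3 (0.75), ANKRD37 (-1.72), PFKFB4 (-1.01), KDM3A (-0.63) and PER3 (-1.27). Other genes were LINC01036 (4.34), FILIP1L (0.88), BCHE (2.22), CEP85L (2.21), RBPMS (-0.40) and PEG3 (-5.24). The RBPMS call (adjusted p = 0.0332, limma) ended in 12 settings, with adjusted p between 0.0518 and 0.189, among them CPM as deposited, only the 12 libraries and 10 of the 12 single libraries left out. Without KO 3 h library 3 the calls of ATF3 (difference 0.51, adjusted p = 0.0675), SESN2 (difference 0.57, adjusted p = 0.105), TRIB3 (difference 0.64, adjusted p = 0.0587) and HES5 (difference 0.63, adjusted p = 0.0658) ended. The genes whose call ended under at least 1 setting were ATF3, CDC6, COL1A1, DNMT3L, FILIP1L, FOSL1, GADD45A, HES5, ID2, ID4, KDM3A, KLF5, PEG3, PER3, PFKFB4, PRRX1, RBPMS, RRM2, SESN2, SP5, SRSF3, TRIB3, VIM, WNT3 and XBP1. PEG3 had 1 read over the 6 KO libraries, and 36.3, 35.7 and 35.4 CPM in WT 3 h libraries, against 13.8, 0 and 0 CPM in WT 0 h libraries. WT 0 h library 1, which stood apart from its mates, enters every one of these values. Of the 55 calls, 30 held under every alternative setting run, 0 ended without that library and 24 when only the 12 libraries were fitted. No test for a single library far from its group was made, since groups held 3 libraries.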

How the results depend on the processing

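The counts of KO 3 h against KO 0 h kept within 1.5 times their value under all alternatives but one: with at least 5 CPM in 3 libraries, which leaves 12376 genes to test, 4339 were higher, and in WT 3752. Upper-quartile scaling moved the median of all genes to -0.10 on the log2 scale, with 5723 higher and 7392 lower. The counts of the difference between KO and WT changes were less steady. When the fit held these 12 libraries alone, there were 144 higher and 466 lower, with array weights 2263 and 2805, and without the 2 libraries that stood apart 3031 and 3144. With 1 library left out they ranged from 447 to 2425 higher and from 815 to 2686 lower, the upper ends without WT 0 h library 1. With CPM as deposited they were 931 and 932. The PEG3 difference was -5.24 by limma and 12.5 by DESeq2, with no adjusted p given. The cause was not tested for any of these.

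Library numbers paired the samples weakly at most. Same-numbered libraries deviated from their group means with correlations of 0.042 to 0.059 in KO and -0.059 to -0.024 in WT. Differently numbered libraries gave -0.063 to 0.0036 in KO and -0.070 to 0.106 in WT. In KO each library correlated best with its own number. With the replicate block, 6543 genes were higher and 6438 lower in KO, 5625 and 5360 in WT, and 694 and 1052 in the difference. Over the genes named, 3219 KO values kept direction and side of the threshold across alternatives, 13 became weaker (AXIN2 and GSC) and 3 stronger. Of the differences 3851 kept both, 245 became weaker and 164 stronger. Levels under about 0.1 CPM rest on a few reads.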

Other observations

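Genes whose symbol begins with ZNF, mostly zinc finger transcription factors, were looked at after the values had been seen. Of 477 tested, 228 (47.8%) were called higher and 124 (26%) lower in KO at 3 h, where 33.1% and 32.6% of all genes were. A log2 fall of at least 1 was called for 58 (12.2%, beside 13.7% of all genes), and for 32 of these the difference from WT was also called lower. The median log2 change was 0.24 in KO and 0.34 in WT. The 7 that were off at 3 h in KO stand beside a group that moved on balance to higher levels, and 6 of the 7 had at least 5 CPM in every KO library at 48 h. MGMT averaged 8.59 CPM in KO libraries at 48 h, and in WT libraries at 3 h 7.57 CPM. CFLAR averaged 23.3 CPM in KO libraries at 48 h, and in WT libraries at 3 h 3.03 CPM.

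By gene class, 1831 of 15186 protein-coding genes were called higher and 1871 lower by a log2 of at least 1 in KO at 3 h, whereas of 1146 lincRNA genes 99 were higher and 277 lower. Over all genes tested the shares were 11.3% higher and 13.7% lower. Classes were not counted in WT cells, so whether this split is particular to KO was not tested.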
